A study of Mus musculus with 8 samples.

Results

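The GASP and ARMCX genes are a mouse gene family on the X chromosome whose proteins share an armadillo-repeat domain. The members described here are Gprasp1, Gprasp2 and Armcx1 to Armcx6, the rows of the deposited expression table that carry those symbols, 8 of 20976 genes in all. The family was selected on the values of Gprasp2, which were higher in cells treated with Cre, so the change of Gprasp2 between Cre and GFP is given as a description with no test. The other 7 members were taken by their family name. All 8 genes passed the filter on low values and entered the test.

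GASP proteins, the GPCR-associated sorting proteins, bind the intracellular tails of G protein-coupled receptors and direct internalised receptors to lysosomes, where the receptors are degraded. Several ARMCX proteins sit in the outer mitochondrial membrane, and in mouse neurons Armcx3 and Armcx1 act with the Miro and Trak adaptors that couple mitochondria to kinesin motors. The family is best known from neurons. Its ARMCX members are found in placental mammals and are related to the autosomal gene Armc10.

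RNA came from cultured mouse muscle stem cells, the satellite cells that rebuild injured muscle. Cells of both groups were sorted by flow cytometry from Chd4LoxP/LoxP mice, expanded briefly in serum medium with bFGF, and infected with adenovirus. In the Cre group (n = 4 libraries) the virus carried Cre recombinase, which deletes exons 12 to 21 of Chd4, which encodes the motor subunit of the NuRD remodelling complex. In the GFP group (n = 4 libraries) it carried GFP, and Chd4 was left intact. The design text gives 4 mice per group, and the labels used here give no age, strain background or sex. No library had Cre in cells whose Chd4 lacked loxP sites, so an effect of Cre itself and the loss of Chd4 cannot be told apart.

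The table holds whole numbers per gene made from read counts by scaling the libraries to each other, called normalised reads here. Their totals were 28402534 to 28876348 in Cre and 27897860 to 28485789 in GFP, and they are scaled totals rather than sequencing depth. The Cre libraries gave 3686, 5480, 5010 and 5134 normalised reads of Chd4, against 17886, 15904, 16634 and 20121 from the GFP libraries, so no library went against its label. Same-numbered Cre and GFP libraries varied together across genes, and they are called a pair below. Libraries 1 and 4 of both groups held 40670 to 49984 normalised reads of Xist, and libraries 2 and 3 of both groups held 2 to 12. The Y-linked genes Ddx3y, Eif2s3y, Kdm5d and Uty each gave 0 to 4 in libraries 1 and 4, and 886 to 3823 in libraries 2 and 3. By these genes, libraries 1 and 4 read as female and libraries 2 and 3 as male in both groups. All 6 muscle markers examined were well expressed, with sums of 91077 to 107523 in Cre and 88766 to 97376 in GFP.

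The 8 genes lie in 2 blocks on chromosome X (GRCm38). Armcx4, Armcx1, Armcx6, Armcx3 and Armcx2 occupy 123 kb, and Armcx5, Gprasp1 and Gprasp2 occupy 102 kb beyond a gap of 934 kb. In GENCODE M21 each annotated coding transcript of the 8 genes carries its coding sequence in 1 exon. Gprasp2 lies at 135839034 to 135844730 on the plus strand, and Gprasp1 at 135742733 to 135803474 on the same strand. Armcx5 starts at the same base as Gprasp1 and ends at 135747322, and 375 exonic bases belong to both genes. Upstream of them, Armcx4 lies at 134686519 to 134696757, Armcx1 at 134717963 to 134721917 and Armcx3 at 134756595 to 134761455, all on the plus strand. Armcx6 at 134748461 to 134751417 and Armcx2 at 134804145 to 134809221 lie on the minus strand.

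Promoter sequence is shown for genes whose starts are shared or most alike, and for Armcx2, the most abundant member. RefSeq (GRCm38.p6) gave a window of 250 bases before and 50 after the start for 7 of the 8 members and for Bhlhb9, the gene next to Gprasp2, also known as Gprasp3. The windows of Gprasp2 and Bhlhb9 aligned with 86.7% identity over 309 columns. The window of Gprasp1 is the window of Armcx5. The RefSeq starts of Gprasp1, Armcx5, Armcx1 and Armcx6 lie upstream of the gene starts given above. The other 26 pairs among these windows had 40.7 to 55.0% identity. The last 150 bases before the start of Gprasp2 (chrX:135838884-135839033, plus strand) and of Bhlhb9 (chrX:135885701-135885850, plus strand) follow, 5′ to 3′, with the longest run shared by the pair, 60 bases, in capitals.
Gprasp2: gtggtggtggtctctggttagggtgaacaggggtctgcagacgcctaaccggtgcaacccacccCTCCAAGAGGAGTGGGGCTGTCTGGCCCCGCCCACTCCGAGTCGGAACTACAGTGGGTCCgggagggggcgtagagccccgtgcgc
Bhlhb9: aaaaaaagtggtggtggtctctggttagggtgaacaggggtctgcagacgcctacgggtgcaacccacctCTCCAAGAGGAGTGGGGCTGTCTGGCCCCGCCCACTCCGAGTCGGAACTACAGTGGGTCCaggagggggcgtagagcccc

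The next lines show the 150 bases before the RefSeq start shared by Gprasp1 and Armcx5 (chrX:135742542-135742691, plus strand), and those before Armcx2 (chrX:134809222-134809371, minus strand). CG dinucleotides are in capitals, and there are 10 in the first stretch and 2 in the second.
Gprasp1 and Armcx5: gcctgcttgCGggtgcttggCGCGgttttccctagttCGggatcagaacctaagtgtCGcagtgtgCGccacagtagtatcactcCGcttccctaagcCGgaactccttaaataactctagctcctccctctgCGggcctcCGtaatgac
Armcx2: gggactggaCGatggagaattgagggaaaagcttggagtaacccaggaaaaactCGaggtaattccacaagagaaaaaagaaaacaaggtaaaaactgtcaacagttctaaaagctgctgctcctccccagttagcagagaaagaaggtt

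Armcx1 and Armcx6 had the highest identity of the other pairs, 55.0%. Their longest shared run of 12 bases is in capitals in the last 100 bases before each start (chrX:134717838-134717937, plus strand, and chrX:134751420-134751519, minus strand).
Armcx1: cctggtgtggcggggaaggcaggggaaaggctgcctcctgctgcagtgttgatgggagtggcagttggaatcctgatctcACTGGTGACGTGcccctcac
Armcx6: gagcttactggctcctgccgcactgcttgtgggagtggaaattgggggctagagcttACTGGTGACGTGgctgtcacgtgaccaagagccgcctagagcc

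Across the full windows, 25 CG dinucleotides were counted for Gprasp1 and Armcx5, 19 for Armcx4, 14 for Gprasp2, 10 for Armcx6, 7 for Armcx1 and 4 for Armcx2, against a median of 7 over all 32851 windows. Motifs were searched on both strands, and no match of 1 motif overlapped a match of another. The E-box CACGTG occurred in the windows of Armcx1, Armcx4 and Armcx6, and in 7.15% of all windows. The CRE half-site TGACG occurred in 5 of 7 members' windows, namely Gprasp1, Armcx5, Armcx1, Armcx4 and Armcx6, and in 20.8% of all windows. The single window of Gprasp1 and Armcx5 is counted for both genes here. The matches of Armcx1 and Armcx6 lie in their shared run shown above, so the members are not independent cases. The GC box GGGCGG occurred in Gprasp2, Bhlhb9 and Armcx4, and in 35.7% of all windows. Neither the E-box CAGCTG (16.3% of all windows) nor TTCAGCACC, part of the element bound by REST (0.371%), was found in a member's window. These are letter matches and not measured binding sites.

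Levels per length differed widely within the family. Armcx2 was the most abundant member, at 2576 ± 195 normalised reads per kb of exon with Cre, against 2144 ± 79.0 with GFP (± SD over 4 libraries). Gprasp1 came next, at 1018 ± 216 per kb in Cre and 541 ± 110 per kb in GFP. Armcx1, at 483 ± 84.7 per kb in Cre and 369 ± 97.4 per kb in GFP, and Armcx4, at 481 ± 76.6 per kb in Cre and 426 ± 49.2 per kb in GFP, did not differ in level from each other beyond their spread. Armcx6 stood at 223 ± 71.5 per kb in Cre and 140 ± 39.2 per kb in GFP, Armcx5 at 195 ± 28.4 per kb in Cre and 208 ± 39.3 per kb in GFP, and Armcx3 at 138 ± 25.6 per kb in Cre and 93.8 ± 21.8 per kb in GFP. Gprasp2 was the lowest of the 8 in GFP, at 31.2 ± 17.5 per kb, and stood at 133 ± 41.0 per kb in Cre, within the spread of Armcx3. The spreads of Armcx6 and Armcx5 overlapped in Cre as well.

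**Figure D1:**
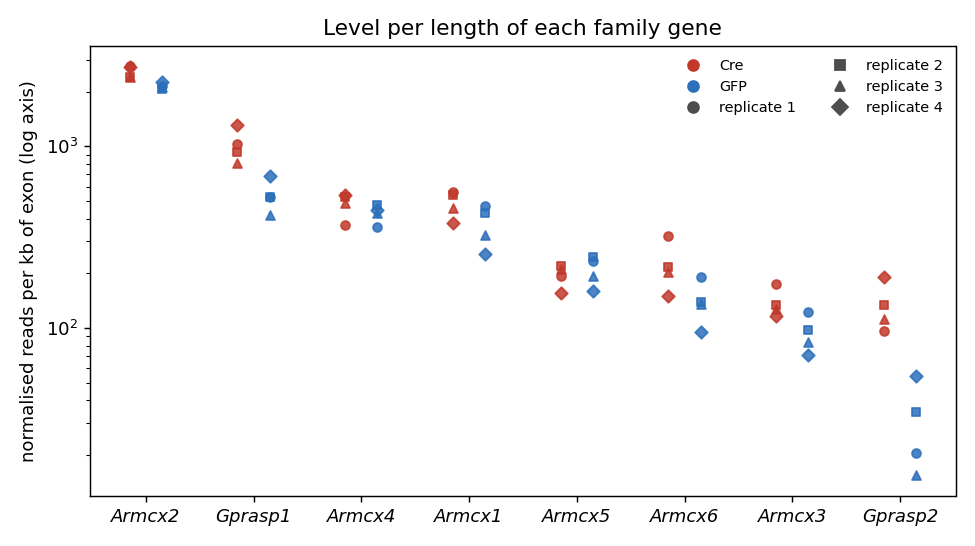
Normalised reads per kb of annotated exon for each family gene, on a log axis, with each library as a point (Cre in red, left, GFP in blue, right, n = 4 each) and genes ordered by their GFP mean. Armcx2 lies highest in every library, and the GFP points of Gprasp2 lie lowest, between 15.5 and 54.5.

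The comparison of Cre with GFP asks how transcripts change when Chd4 is deleted. In the model without pairs (limma on all 12910 genes that passed the filter, Benjamini-Hochberg adjusted p under 0.05), 1.08% of genes were called, 0.837% higher and 0.248% lower. Of the 7 members other than Gprasp2, 0 were called in either direction, and at an unadjusted p under 0.05, 4 were higher and 0 lower, against 7.41% and 9.3% of all genes. With the replicate number as a block, 6 of the 7 rose, 0 fell and Armcx5 was not called, against 22.2% of genes called higher and 21.7% called lower. Their median log2 change was 0.41, beside 0.00 over all genes tested (-0.000814). All 4 pairs were higher in Cre for 6 of the 7 members and for 27.9% of all genes, while 55.5% of all genes had 4 pairs in the same direction, up or down. Since same-numbered libraries varied together, the paired value is given beside each result whose call it changes. In bulk RNA, a larger share of cells that express a gene and more RNA per cell cannot be told apart.

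Gprasp2, whose protein binds the tails of G protein-coupled receptors as Gprasp1 does, gave 366, 507, 426 and 724 normalised reads with Cre in numbers 1 to 4, against 78, 131, 59 and 208 with GFP. Every Cre library lay above every GFP library, and library 4 was the highest in both groups. The Cre mean was 505.75 ± 157 and the GFP mean 119 ± 66.7 (SD over 4 libraries), a ratio of 4.25 and a log2 difference of 2.20 on the log2(value + 1) scale. Within pairs 1 to 4 the Cre value was 4.69, 3.87, 7.22 and 3.48 times the GFP value. This rise is what brought the family into view, and no test is attached to it. Of the 50-base words in Gprasp2 coding transcripts, 10.6% also occur in Gprasp1 transcripts. Reads that lie wholly within such shared sequence cannot be assigned to either gene by sequence alone. How the counting treated them is not given in the sources used here.

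Gprasp1, the sorting protein for which lysosomal targeting of receptors was first described, gave 6109, 5537, 4830 and 7850 normalised reads with Cre, against 3160, 3144, 2514 and 4115 with GFP. The groups did not overlap, which held for 4.41% of all genes with the higher values in Cre and for 6.17% with the lower values in Cre. Library 3 was the lowest and library 4 the highest in both groups. Its log2 change was 0.91 ± 0.18 (SE; limma, adjusted p = 0.0684). With the block it rose by the same amount with an SE of 0.04 (limma, adjusted p = 7.18e-07), and the Cre value was 1.76 to 1.93 times the GFP value in the 4 pairs. The ratio of Cre to GFP thus spanned a narrow range over the pairs for Gprasp1, and a wide range, from 3.48 to 7.22, for Gprasp2. The 7.22 of pair 3 rests on 59 normalised reads of Gprasp2 in GFP, so low values may widen its range. Beside 100 normalised reads of Gprasp1 there were 5.99, 9.16, 8.82 and 9.22 of Gprasp2 with Cre, against 2.47, 4.17, 2.35 and 5.05 with GFP.

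**Figure D2:**
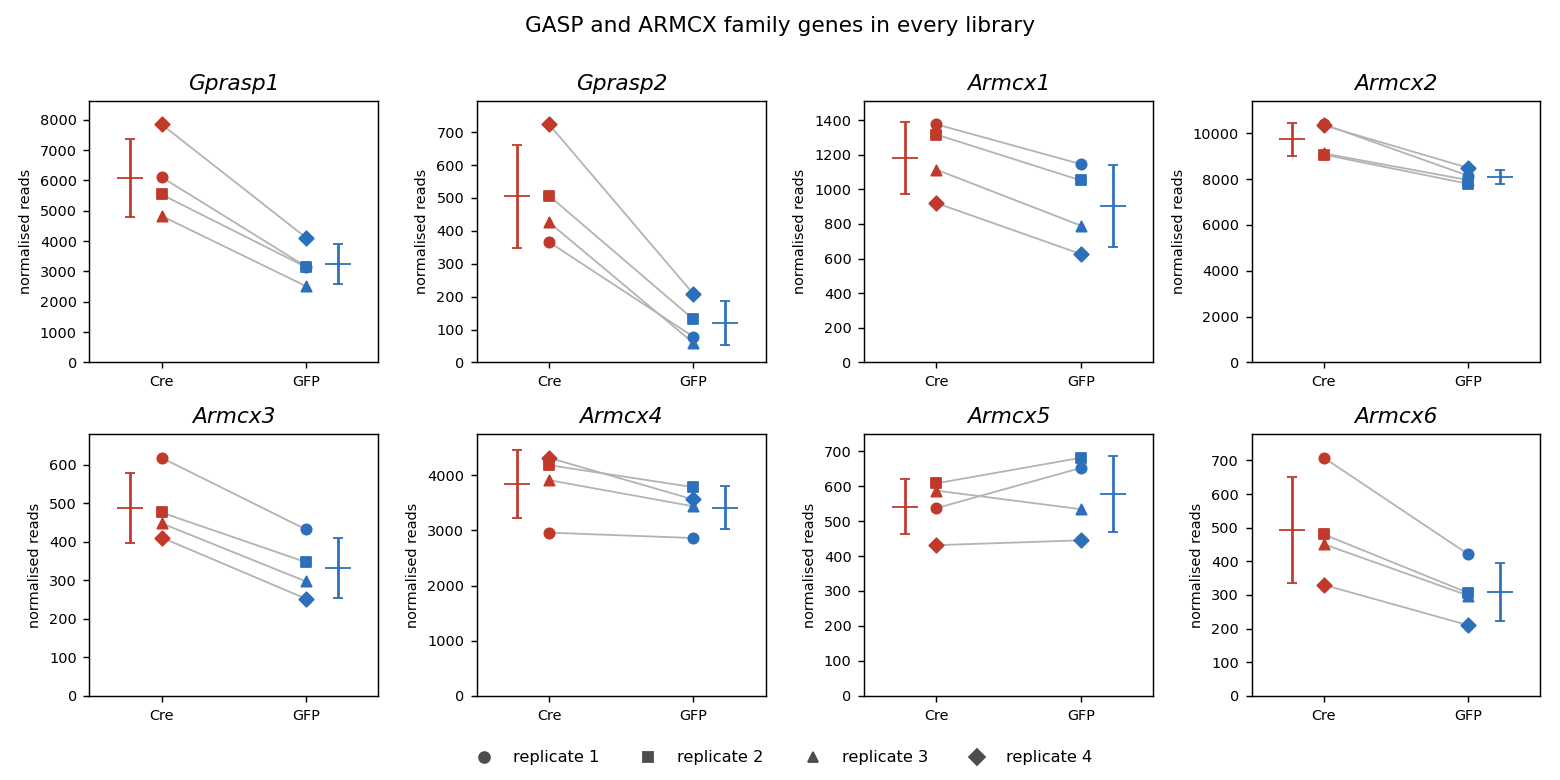
Normalised reads of each family gene in every library, with Cre in red at the left and GFP in blue at the right of each panel, each axis starting at 0. Marker shapes give the replicate number, grey lines join same-numbered libraries, and bars give the mean ± SD (n = 4 each). Lines fall from Cre to GFP in all 4 pairs for every gene except Armcx5.

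Armcx5, which begins at the base where Gprasp1 begins, did not move with it. It gave 537, 608, 587 and 431 normalised reads with Cre, against 652, 681, 534 and 445 with GFP, with the groups overlapping over most of their range. Its log2 difference was -0.09, with a 95% interval from -0.48 to 0.30 (limma, adjusted p = 0.853), and from -0.26 to 0.08 with the block (adjusted p = 0.385). It was higher in Cre in 1 of 4 pairs.

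Per 100 reads of Gprasp1 there were 8.79, 11.0, 12.2 and 5.49 reads of Armcx5 in Cre and 20.6, 21.7, 21.2 and 10.8 in GFP. The ratio was lower in Cre in all 4 pairs, and the groups overlapped only through GFP library 4, which lay below Cre libraries 2 and 3. The log2 difference of this ratio, -0.999, gave a two-sided exact permutation p of 0.0857 over the 8 libraries taken as unpaired, where the smallest p possible was 0.0286. The spread between numbers, with number 4 lowest in both groups, enters this p, and no paired test of the ratio was run. The exonic bases that both genes own, and the 6.22% of Armcx5 50-base words that also occur in the gene Gm8878, make the level of Armcx5 uncertain.

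Armcx3, which links mitochondria to their transport machinery in neurons, gave 618, 476, 448 and 411 normalised reads with Cre, against 432, 347, 297 and 252 with GFP. The groups overlapped, because GFP library 1 lay above Cre library 4, and number 1 was the highest and number 4 the lowest in both groups. The log2 difference was 0.57 ± 0.19 (SE; limma, adjusted p = 0.207), and with the block Armcx3 rose with an SE of 0.07 (adjusted p = 0.00019). Of its 50-base words, 27.6% also occur in Gm9299, so its level is uncertain.

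Armcx1, which promotes mitochondrial transport and axon regrowth in mouse neurons, gave 1375, 1316, 1113 and 920 normalised reads with Cre, against 1145, 1051, 790 and 626 with GFP. The groups overlapped broadly, while the Cre value was 1.20 to 1.47 times the GFP value in each pair. The log2 difference was 0.41 ± 0.21 (SE; limma, adjusted p = 0.38), and with the block Armcx1 rose with an SE of 0.06 (adjusted p = 0.000476).

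Armcx6 gave 708, 480, 451 and 330 normalised reads with Cre, against 421, 306, 298 and 210 with GFP. Cre library 4 lay below GFP library 1, so the groups overlapped, although the Cre value was 1.51 to 1.68 times the GFP value in each pair. The log2 difference of 0.66 ± 0.27 did not pass without the block (limma, adjusted p = 0.277), and with it Armcx6 rose with an SE of 0.07 (adjusted p = 6.47e-05). It shares 17.5% of its 50-base words with Gm16397, so its level too is uncertain.

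Armcx2 and Armcx4 had the smallest positive differences. Armcx2 gave 10385, 9063, 9115 and 10337 normalised reads with Cre, against 8140, 7791, 7953 and 8485 with GFP. Its groups did not overlap, since the spread within each was small, and its log2 difference was 0.26 ± 0.07 (SE; limma, adjusted p = 0.137), a rise with the block (SE 0.04, adjusted p = 0.000698). Armcx4 gave 2959, 4183, 3911 and 4316 normalised reads with Cre, against 2861, 3783, 3436 and 3560 with GFP, with number 1 the lowest in both groups. Its log2 difference was 0.16 ± 0.14 (limma, adjusted p = 0.605). With the block it rose (SE 0.05, adjusted p = 0.0158), a call lost without pair 2, 3 or 4 (adjusted p of 0.0504, 0.0525 and 0.0843).

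**Figure D3:**
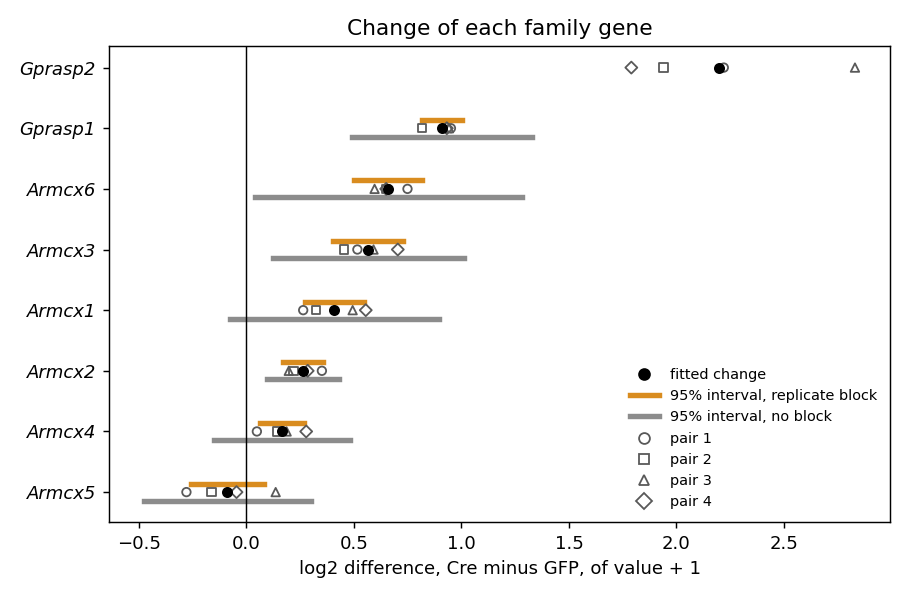
Log2 difference between Cre and GFP for each family gene, with the fitted change as a black point, the 4 same-numbered pairs as open shapes, and 95% intervals without the block (grey) and with it (orange). Gprasp2 is drawn without an interval because it was chosen for its rise. The orange intervals of Gprasp1, Armcx6, Armcx3, Armcx1, Armcx2 and Armcx4 lie above 0, and that of Armcx5 spans it.

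Without Gprasp2, the members summed to 22691, 21663, 20455 and 24595 normalised reads with Cre, against 16811, 17103, 15822 and 17693 with GFP. The groups did not overlap, as was so for 4.41% of single genes with the higher values in Cre, and most of the sum came from Armcx2 and Gprasp1, whose own groups do not overlap either. Of the sum with Gprasp2, Armcx2 made up 40.8 to 45.0% in Cre and 45.2 to 50.1% in GFP. Gprasp2 made up 1.59 to 2.86% in Cre and 0.372 to 1.16% in GFP.

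All 8 members are X-linked, so the change was also computed within the pairs with high Xist (1 and 4) and within those with low Xist (2 and 3). The log2 change of Gprasp1 was 0.94 in pairs 1 and 4 and 0.88 in pairs 2 and 3. That of Armcx1 was 0.41 in both, that of Armcx3 was 0.61 and 0.52, and that of Armcx6 was 0.70 and 0.62. In the same order, Armcx2 had 0.32 and 0.21, Armcx4 0.16 and 0.17, and Armcx5 -0.16 and -0.01. Gprasp2 differed by 2.01 in pairs 1 and 4 and by 2.39 in pairs 2 and 3. For none of the other 7 members did the difference between the kinds of pair pass the test (limma, interaction adjusted p of 0.999 or 1), and 1 gene of the 12910 passed it. With so few pairs of each kind, not passing does not show that the kinds agree. On the whole X chromosome 437 genes were tested, with a median log2 change of 0.05. Without the block 7 of them were called higher and 0 lower, 1.6% beside 1.08% of all genes. With the block 44.4% of the X-linked genes were called, beside 43.9% of all genes. These X-linked counts include Gprasp2, which was chosen for its rise and for which no test is given. The shares are therefore a description, and no result about the X chromosome is drawn from them.

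Members differed between replicate numbers, and much of that difference was common to Cre and GFP. For 4 members, Gprasp1, Armcx1, Armcx3 and Armcx6, the order of the 4 numbers was identical in both groups. Armcx1, Armcx3 and Armcx6 were highest in number 1 and lowest in number 4, while Gprasp1 and Gprasp2 were highest in number 4. Deviations from the group means correlated across the 8 libraries at r = 0.918 between Armcx1 and Armcx3, 0.954 between Armcx3 and Armcx6, and 0.806 between Gprasp1 and Gprasp2. Between Armcx6 and Armcx4 the correlation was -0.824. Same-numbered libraries vary together, so these are not 8 independent points, and the correlations are given as a description.

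**Figure D4:**
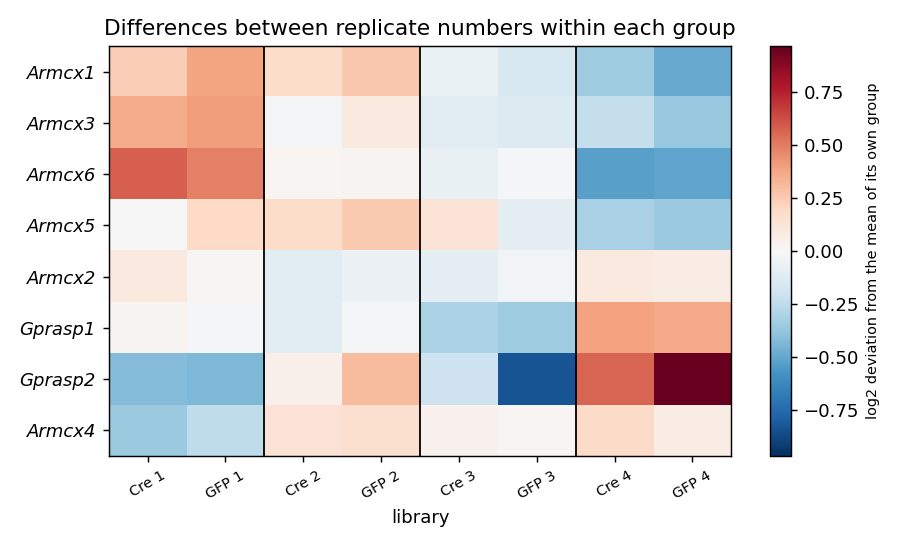
Log2 deviation of each family gene from the mean of its own group, for every library, with the Cre library left of the GFP library of the same number. Armcx1, Armcx3 and Armcx6 share high values in number 1 and low values in number 4, and Gprasp1 and Gprasp2 are high in number 4, where Gprasp2 reaches 0.97 in GFP.

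Outside the family, the genes with the most similar pattern to Gprasp2 over the 8 libraries were Zcchc12 (Pearson r = 0.987), the glucose transporter gene Slc2a3 (0.986), Rasl12 (0.985), Cox6b2 (0.979) and Ehd3, which encodes a protein of endocytic recycling (0.974). Zcchc12 averaged 248 normalised reads in Cre and 67.5 in GFP, and Ehd3 2747 in Cre and 1322 in GFP. Since genes were ranked by the match to Gprasp2 itself, the difference between the groups contributes to each r. For deviations from the group means, r with Gprasp2 was 0.953, 0.929, 0.957, 0.954 and 0.912 in the same order. Same-numbered libraries vary together, so neither kind of r rests on 8 independent points.

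The gene next to Gprasp2 in position and in promoter sequence is Bhlhb9, the third GASP gene, which is not among the 8 members. It gave 2253, 2286, 2065 and 2606 normalised reads with Cre, against 1588, 1846, 1616 and 2142 with GFP, with GFP library 4 above Cre library 3. Its log2 difference was 0.36 ± 0.12 (SE; limma, adjusted p = 0.189), and with the block it rose with an SE of 0.05 (adjusted p = 0.000271). The difference was 2.20 for Gprasp2, whose upstream sequence shares the 60-base run in capitals. In GENCODE M21 the gene body of Bhlhb9 spans Gprasp2 and the end of Gprasp1 on the same strand. Gprasp2 shares 0 exonic bases of coding transcripts with it, and 0 of the 50-base words of Bhlhb9 coding transcripts occur in another gene. The deposited values place the start of Bhlhb9 at 135885851, against 135797594 in GENCODE M21, so these figures need not hold for the gene model that was counted. Armc10, the autosomal relative, averaged 847 ± 58.7 normalised reads in Cre and 973 ± 81.2 in GFP, with a log2 difference of -0.20 (limma, adjusted p = 0.327), and it fell with the block (adjusted p = 0.0119).

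The X-linked neighbourhood of the family also holds the Bex and Tceal genes, small genes related to transcription elongation factors or to cell-cycle and neurotrophin signalling. Of 43 other genes of the table within 1 Mb of a member, 30 were tested, and 1 was called higher without the block and 0 lower. This was Tceal5, at 236 ± 45.3 normalised reads in Cre and 94.8 ± 19.4 in GFP (log2 change 1.31 ± 0.22, limma, adjusted p = 0.0351), a call lost whichever single library was left out. Tceal6 had a log2 difference of 2.10 (limma, adjusted p = 0.0986) and Nxf7, of the nuclear RNA export factor family, 1.75 (adjusted p = 0.0873), and both rose with the block (adjusted p = 8.346e-06 and 0.000124). The mitochondrial tRNA methyltransferase gene Trmt2b had a difference of -0.32 (limma, adjusted p = 0.182) and fell with the block (adjusted p = 0.00456). Larger falls with the block were those of Srpx2, by 0.88, and of the centromere gene Cenpi, by 0.69 (limma, adjusted p of 3.38e-05 and 0.000184, against 0.434 and 0.303 without it). With the block 13 neighbours rose and 6 fell, 63.3% of those tested against 43.9% of all genes, and the median log2 change of the neighbours was 0.08. Among the 9 Bex and Tceal genes tested 7 rose and 0 fell with the block, with a median log2 change of 0.51. The design did not name these genes as a list, so their counts are a description of part of the neighbours.

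**Figure D5:**
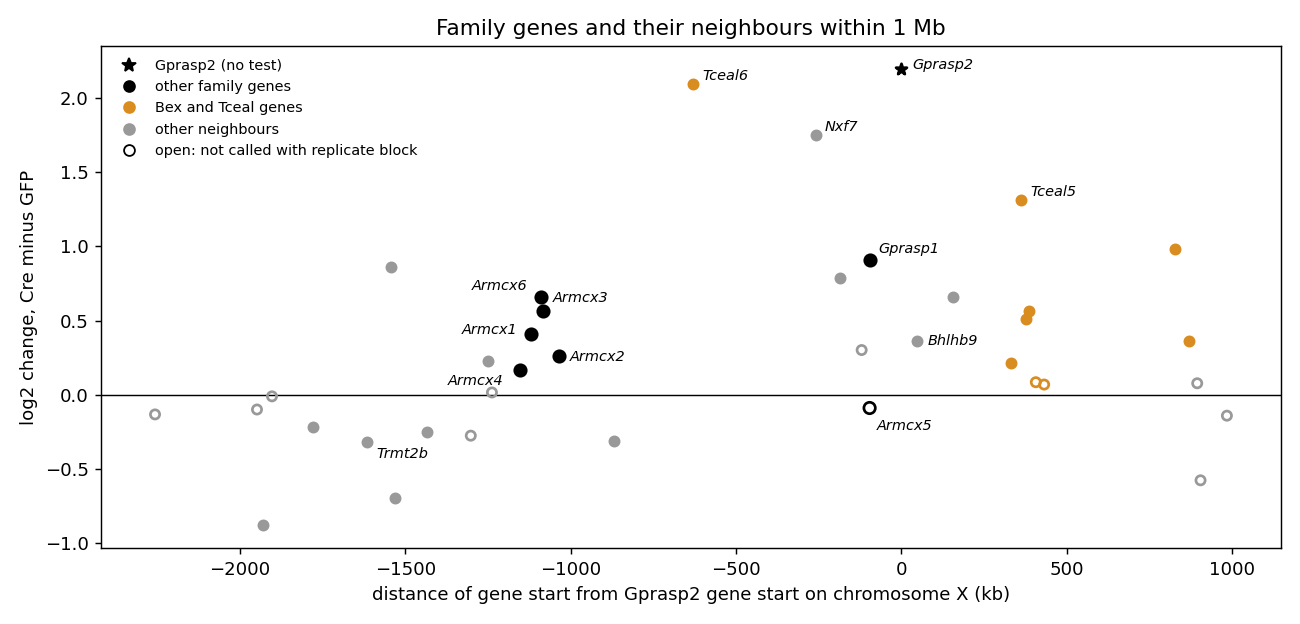
Log2 change between Cre and GFP for the family genes (black) and the tested genes within 1 Mb of them, against the distance of each gene start from that of Gprasp2. Bex and Tceal genes are orange, other neighbours grey, and open symbols were not called with the replicate block. Gprasp2 is drawn as a filled star, and no test is given for it. Tceal6, Nxf7 and Tceal5 lie above 1 together with Gprasp2, and Trmt2b lies below 0.

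Partners of the family were described from lists of the pathway. Of 17 genes of mitochondrial transport, 15 were tested, and 0 were called without the block, with a median log2 change of 0.06. With the block 5 rose and 2 fell, 46.7% of those tested, near the share over all genes. Those that rose were the kinesin light chain genes Klc2 (0.22, adjusted p = 0.00969) and Klc4 (0.35, adjusted p = 0.00267), the kinesin heavy chain genes Kif5b (0.13, adjusted p = 0.0368) and Kif5c (0.34, adjusted p = 0.00026), and the kinesin adaptor gene Fez1 (0.47, adjusted p = 0.00645), all from limma with the block. The 2 that fell were Rhot2, which encodes Miro2, with a log2 change of -0.18, and the adaptor gene Trak2 with -0.12 (limma with the block, adjusted p of 0.0495 and 0.0485).

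Of 20 genes of receptor sorting and desensitisation, 18 were tested, and 0 were called without the block, with a median of 0.05. With the block 6 rose and 3 fell, 50% of those tested, near the 43.9% over all genes. The receptor kinase gene Grk6 stood at 1596 ± 171 normalised reads in Cre and 2082 ± 202 in GFP, a log2 difference of -0.39 (limma, adjusted p = 0.133), and fell with the block (adjusted p = 8.5e-05). Grk5, its paralogue, stood at 129.5 ± 13.0 in Cre and 92.8 ± 5.38 in GFP, a difference of 0.47 (limma, adjusted p = 0.159), and rose with the block (adjusted p = 0.00886). The beta-arrestin genes went opposite ways with the block: Arrb1 rose by 0.58 (limma, adjusted p = 0.000837) and Arrb2 fell by 0.38 (adjusted p = 0.00263). Hgs, which sorts ubiquitinated receptors on endosomes, fell by 0.19 with the block, and its partner Stam rose by 0.21 (limma, adjusted p of 0.0101 and 0.0025). The other genes that rose with the block were the endosomal GTPase genes Rab11a (0.20) and Rab5a (0.16) and the autophagy gene Becn1 (0.15), with adjusted p of 0.00298, 0.016 and 0.014 (limma).

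Of 8 receptor genes whose proteins bind GASP proteins, 2 passed the filter. The beta-1 adrenergic receptor gene Adrb1 had a log2 difference of 0.46 (limma, adjusted p = 0.515) and rose with the block (adjusted p = 0.00649). The cannabinoid receptor gene Cnr1 averaged 1788 ± 374 normalised reads in Cre and 1858 ± 534 in GFP, and passed neither model (limma, adjusted p of 0.972 and 0.737).

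Because the family is best known from neurons, markers of other cell types were read in the same libraries. Of 5 neuron markers 4 were in the table, with sums of 2068 to 4093 normalised reads in Cre and 1458 to 2970 in GFP, chiefly from Syn1. Of 4 endothelial markers all were in the table, with sums of 276 to 408 in Cre and 141 to 182 in GFP, and the most abundant was Tek. Schwann cell markers, of which 3 of 5 were in the table, summed to 67 to 77 in Cre and 37 to 110 in GFP. Blood markers, of which 2 of 3 were in the table, summed to 89 to 396 in Cre and 28 to 243 in GFP, and fibro-adipogenic markers, also 2 of 3, to 96 to 143 in Cre and 105 to 151 in GFP. No marker in the table was at 0 in every library. None of the markers that passed the filter was called without the block. With it, the endothelial marker Tek rose by 1.46, the neuron markers Stmn2 and Syn1 by 1.00 and 0.32, and the macrophage marker Cd68, of the blood list, by 1.00 (limma, adjusted p of 3.28e-05, 6.88e-05, 0.00421 and 0.000369, against 0.175, 0.596, 0.434 and 0.535 without it). Of the muscle markers, Myf5 fell by 0.57 and Pax7 by 0.14 with the block, and Myod1 rose by 0.20 and Des by 0.17 (limma, adjusted p of 0.000124, 0.0354, 0.0425 and 0.0447). The part in the difference of Gprasp2 of the neuron, endothelial and blood markers, which moved the same way, was not tested.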

How the data were processed

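Total RNA of 4 Cre and 4 GFP libraries was sequenced, and the library kit kept strand, per the labels' protocols. The submitters' processing notes name STAR 2.5.3a, featureCounts 1.5.3 (Subread), DESeq, mm10 and GRCm38. The sources used here do not give their settings, the annotation release or whether strand was used. Each deposited value is handled as a score, a scaled count rounded to a whole number: whole numbers between 0 and 30 were absent in 4 of 8 libraries, as when counts are divided by a factor and rounded. Original depth was not recovered, so no counting interval is given. The design named a count model for raw counts and limma otherwise, and limma 3.58.1 (R 4.3.3, intensity trend) was run on log2(value + 1), which understates changes of low genes.

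Genes with at least 1 CPM (values relative to the library total) in 4 libraries were kept, 12910 of 20976. P-values were two-sided, Benjamini-Hochberg adjusted over those genes, with a threshold of 0.05. Group and number came from the titles. The correlation of deviations from the group means was 0.82 to 0.908 for libraries with the same number and -0.597 to 0.477 for the rest, so the numbers were taken to pair the libraries, on the values alone. Nothing says that libraries of a group come from separate cultures, beyond the 4 mice per group of the design text. Exon lengths, shared 50-base words and gene structures came from GENCODE M21, and promoters from RefSeq, aligned with Biopython 1.88. Exon lengths and shared exonic bases used protein-coding transcripts only, and need not match the annotation that was counted. Tables and figures were made with Python 3.11.15, numpy 2.4.6, pandas 2.3.3, scipy 1.17.1 and matplotlib 3.10.9. The calls of the model with the block were checked on simulated libraries, in which the 2 libraries of a pair were drawn from a shared level. For the model without the block only the size of the changes was checked.

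The members and lists were chosen with earlier results of these data known. Named genes were the 8 members, Chd4, up to 5 genes with the smallest p of each list and of the neighbours, and the 5 genes most like Gprasp2. Rhot2, Trak2, Arrb1, Stam, Rab11a, Rab5a, Srpx2, Cenpi and the markers called with the block were added after their values were seen. Alternatives were the block, pseudocounts, filters, rescalings, and leaving out libraries, pairs or kinds of pair.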

Additional observations from a re-analysis of the deposited data

How the results depend on the processing

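The direction of all 8 members held in the 21 alternatives, with the exception of Armcx5, which stood at 0.0166 (log2) without Cre replicate 4 and at -0.207 to 0.0166 over all single libraries left out. Gprasp2 ranged from 1.92 to 2.52 and Gprasp1 from 0.78 to 1.03. Gprasp2 was left out of the counts of members called. No alternative without the block called any of the other members, and Gprasp1 had an adjusted p of 0.0522 to 0.174 in those (limma). The replicate block moved the calls over all genes to 2861 higher and 2804 lower, against 108 and 32 without it. It called 6 members higher, 13 neighbours higher and 6 lower, and 13 partners higher and 6 lower, against 0, 1, 0, 0 and 0. Pairs 1 and 4 alone, with the block, called 1614 genes higher and 1588 lower, 5 members, 10 neighbours higher and 4 lower, and 7 partners higher and 2 lower. Pairs 2 and 3 alone called 1973 and 1711 genes, 5 members, 11 and 4 neighbours, and 9 and 3 partners. A filter of 5 CPM lowered the genes called higher to 58. Leaving out a single library, without the block, gave 10 to 51 genes higher and 1 to 7 lower, and 0 neighbours. Leaving out a pair, with the block, gave 2648, 2304, 2482 and 2238 genes higher and 2365, 2289, 2379 and 2100 lower, 5 to 6 members, 13 to 14 neighbours higher and 5 to 7 lower, and 10 to 13 partners higher and 4 to 5 lower. Fits on fewer libraries have fewer degrees of freedom, and leaving out a single library breaks a pair. Gprasp2 has 59 to 208 normalised reads in GFP, so its fold rests on low values.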
